A study of Mus musculus with 18 samples.

Results

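The transcripts described here belong to cholesterol synthesis and to the control of SREBP2, the transcription factor that drives it. The set is a list of 28 genes given by name, and all 28 were found among the 18668 rows of the expression table. It holds the thiolases Acat1 and Acat2, 7 genes of the mevalonate and isoprenoid steps, 3 of the squalene and lanosterol steps, 9 of the steps after lanosterol, 6 genes that control SREBP2, and Stard4, a carrier of sterol between membranes.

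RNA was sequenced from bone marrow-derived macrophages (BMDM) of mice on a C57BL6 background, which are marrow cells grown into macrophages for 7 days with M-CSF. Cells came from Apoe-/- mice or from Apoe-/-/Treml4-/- mice (DKO), so every library lacked functional Apoe and there was no wild-type control. Each genotype was left with vehicle (untreated) or received oxLDL, low-density lipoprotein that has been oxidized and that macrophages take up in plaques, at 10 or 60 µg/ml (oxLDL 10 and oxLDL 60), with 3 biological replicates in each of the 6 groups and 18 libraries in all. The series text gives 16 h of treatment while the study's methods give a longer time, a treatment label mentions LPS, and the labels list more than 1 sequencer and read length. None of this was resolved, and sex and age are not stated in the labels.

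Cells make cholesterol from acetyl-CoA through mevalonate, the isoprenoids, squalene and lanosterol. When sterol in the endoplasmic reticulum is low, SCAP escorts SREBP2 to the Golgi, where the site-1 and site-2 proteases (Mbtps1 and Mbtps2) release its active part, which enters the nucleus and switches on the enzymes of the pathway. When sterol is abundant, INSIG proteins hold SCAP in the endoplasmic reticulum, and in macrophages loaded with lipoprotein cholesterol this route is known to lower synthesis.

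Of the members, 3 hold in their promoter the letters CACNCCAC, a shortened form of the element that SREBP binds, where N is any base. The windows, from RefSeq on build GRCm38.p6, run from 250 bases before to 50 bases after the start of the gene, and 23 of the 28 genes had one (Fdft1, Acat1, Stard4, Fdps and Sqle did not). They are shown because all 3 genes also fell with oxLDL 60 in both genotypes. Capitals mark CACNCCAC and CCAAT, the NF-Y letters, on either strand, and a match on the opposite strand is printed as its reverse complement. The window of Acat2 is chr17:12960676-12960975 on the minus strand, that of Insig1 is chr5:28071162-28071461 on the plus strand, and that of Hmgcs1 is chr13:119690101-119690400 on the plus strand.
Acat2: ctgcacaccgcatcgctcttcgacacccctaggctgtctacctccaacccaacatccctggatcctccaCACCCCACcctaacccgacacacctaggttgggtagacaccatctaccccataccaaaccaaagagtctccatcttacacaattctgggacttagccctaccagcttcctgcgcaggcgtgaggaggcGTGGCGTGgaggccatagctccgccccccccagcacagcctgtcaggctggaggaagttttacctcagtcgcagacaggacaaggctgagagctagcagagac
Insig1: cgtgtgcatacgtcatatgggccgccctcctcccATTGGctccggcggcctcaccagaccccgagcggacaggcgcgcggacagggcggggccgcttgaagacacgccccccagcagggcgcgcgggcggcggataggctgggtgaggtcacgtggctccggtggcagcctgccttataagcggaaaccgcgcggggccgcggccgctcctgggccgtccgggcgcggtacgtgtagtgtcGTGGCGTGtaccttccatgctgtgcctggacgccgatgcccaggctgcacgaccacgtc
Hmgcs1: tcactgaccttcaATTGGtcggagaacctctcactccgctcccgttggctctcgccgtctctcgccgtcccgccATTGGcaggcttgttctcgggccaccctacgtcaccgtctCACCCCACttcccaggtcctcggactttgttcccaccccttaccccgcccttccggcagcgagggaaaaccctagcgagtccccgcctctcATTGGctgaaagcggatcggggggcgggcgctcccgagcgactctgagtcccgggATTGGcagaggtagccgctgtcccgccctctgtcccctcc

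Relative to the start site, matches to CACNCCAC began at -181 and -53 in Acat2, the latter on the opposite strand, at -9 in Insig1 on the opposite strand, and at -136 in Hmgcs1. Only the Hmgcs1 match was also a match to the longer TCACNCCAC, which contains the shorter letters. Of all 32851 windows, 6.24% held CACNCCAC and 1.24% held TCACNCCAC on either strand, and per gene CACNCCAC was found in 3 of 23 members (13.0%) against 7.12% of 27025 symbols. It was found in 3 of the 9 members with a window that were called lower with oxLDL 60 in both genotypes and in 0 of the other 14. Fdft1, Fdps, Sqle and Stard4 were called lower in both genotypes too but had no window to search. CCAAT was found in 19 of 23 members (82.6%) against 41.1% of symbols, in 8 of those 9 and in 11 of those 14. GGGCGG, the SP1 letters, was found in 20 of 23 (87.0%) against 38.2% of symbols, in 9 of the 9 and in 11 of the 14. The CCAAT and GGGCGG letters thus occurred in members that were called lower and in members that were not. The 27025 symbols go beyond the 12838 genes that passed the filter on expression, while all members passed it. The shares of symbols are thus not those of expressed genes, which were not counted. With oxLDL 60, Mvk, Lss, Nsdhl, Sc5d and Dhcr7 of the other 14 were lower at a limma adjusted p under 0.05 in both genotypes. They lay under the 1.4-fold limit. Letters found in a window are not evidence of binding.

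Levels are given in RPKM, which are reads scaled to gene length and library size. Library depth, recovered from the 1-read steps of low values, was about 36400000 to 49700000 reads, and at least about 289 reads stood behind every member value. Treml4 was at 1.86 to 8.39 RPKM in Apoe-/- and at no more than 0.0116 RPKM in DKO, and residual Apoe transcript was at 0.349 to 4.13 RPKM. All 7 macrophage markers averaged 1 RPKM or more over all libraries. Their sum was 8614 to 11350 RPKM in untreated Apoe-/- and 6423 to 8353 RPKM with oxLDL 60, and in DKO 8058 to 10530 and 5458 to 7042 RPKM. With oxLDL 10 the sum overlapped the untreated range in each genotype. Most of that sum is Lyz2, which stood at 8554 ± 1234 RPKM untreated and 5621 ± 950 RPKM with oxLDL 60 in Apoe-/-, and of the 7 markers 5 had a lower and 2 a higher mean with oxLDL 60 in each genotype. Cd68 was at 484 ± 44.6 and 647 ± 26.0 RPKM in Apoe-/- and at 488 ± 37.2 and 595 ± 20.2 RPKM in DKO, and Mertk was at 3.32 ± 0.889 and 5.35 ± 1.4 RPKM and at 2.48 ± 0.281 and 4.07 ± 0.338 RPKM. By the limits given below, Adgre1, Fcgr1 and Lyz2 were called lower in Apoe-/- (6.78% of all genes) and Fcgr1 and Lyz2 in DKO (7.31%). Mertk was called higher in both genotypes (7.13% and 4.87% of all genes), and Cd68 was called in neither. The dendritic cell markers summed to at most 0.306 RPKM and the mast cell and basophil markers to 0.277 RPKM, and the 4 T and B cell markers together reached at most 0.175 RPKM. Neutrophil and progenitor markers summed to 10.7 to 31.1 RPKM and stromal markers to 0.670 to 12.0 RPKM, and in both lists the ranges with oxLDL overlapped those of untreated cells in each genotype. In bulk RNA, fewer cells of a type and less RNA per cell cannot be told apart, and the part of these marker differences in the results was not tested. Replicate 2 of Apoe-/- and replicate 3 of DKO stood apart at every treatment, with Xist at 7.25 to 14.5 RPKM against at most 0.0690 RPKM in the other 12 libraries.

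The members were expressed at moderate to high levels. Averaged over 18 libraries they ran from 2.22 RPKM for Tm7sf2, at the 51.9th percentile of all genes, to 25.9 RPKM for Fdps, at the 88.0th. The ratio of the highest to the lowest library was 6.76 for Idi1, 3.58 for Cyp51, 3.54 for Sqle and 3.03 for Srebf2, and it was 1.17 for Ebp and 1.19 for Mbtps1. Some members thus varied several-fold over the libraries, while others stayed nearly level.

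The first question was how oxLDL changed these genes within each genotype. With oxLDL 60, 13 of 28 members fell in Apoe-/- cells, where 6.78% of the 12838 genes tested were called lower, and the same 13 fell in DKO cells, where 7.31% were called lower. They were Acat2, Hmgcs1, Mvd, Idi1, Fdps, Fdft1, Sqle, Cyp51, Msmo1, Hsd17b7, Srebf2, Insig1 and Stard4. One member, Insig2, rose in Apoe-/- cells, where 7.13% of genes were called higher. A gene was called when limma gave a Benjamini-Hochberg adjusted p under 0.05 over all genes tested and the fold change was at least 1.4, on the log2(RPKM + 0.1) scale. The median log2 fold change of the members was -0.44 in both genotypes, against 0.06 for all genes in Apoe-/- and -0.06 in DKO.

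With oxLDL 10, 14 members fell in Apoe-/- cells (2.04% of all genes) and 12 in DKO cells (1.69%), and none rose. The medians were -0.51 and -0.46, against 0.07 and 0.02 for all genes. A core of 11 members, 39.3% of the set, fell in all 4 comparisons with untreated cells, against 187 genes or 1.46% of all genes tested. In this core the call with oxLDL 10 in DKO was lost for Fdft1 under 7 of 15 alternative fits. For Stard4 it was lost under 6 of them, and for Hmgcs1 under 1 in each genotype. The comparisons of the 2 amounts share the untreated libraries of their genotype, so their values are given side by side and not as independent results. Groups of 3 libraries lay entirely below the untreated ones for 19 members with oxLDL 60 in Apoe-/- (14.9% of all genes), 19 in DKO (28.3%), 18 with oxLDL 10 in Apoe-/- (6.16%) and 18 in DKO (8.90%). Without the 6 Xist-positive libraries, an alternative added after seeing the data, 13 lower and 1 higher were called with oxLDL 60 in Apoe-/-, 13 lower in DKO, and 15 and 13 lower with oxLDL 10. Of all 12838 genes tested, 819 were then called lower and 988 higher with oxLDL 60 in Apoe-/- and 867 lower in DKO. With oxLDL 10, 268 and 207 of all genes were called lower.

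**Figure D1:**
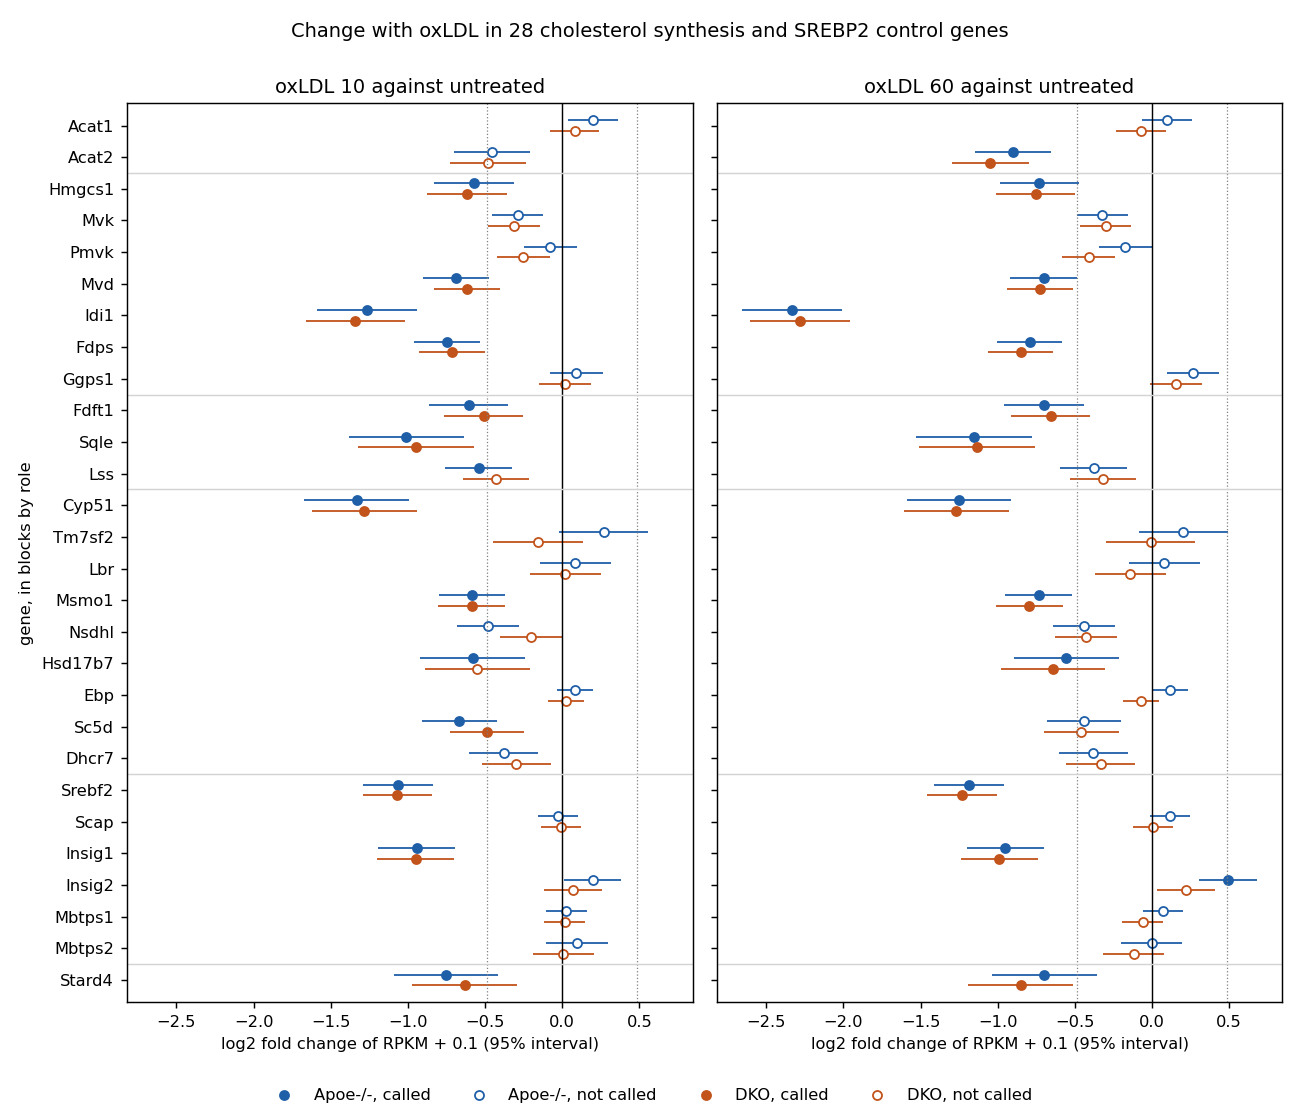
Log2 fold change of RPKM + 0.1 against untreated cells for each of the 28 genes (rows, in blocks by role), for oxLDL 10 (left) and oxLDL 60 (right), in Apoe-/- (blue) and DKO (orange), with 95% intervals from limma. Filled points were called, dotted lines mark a 1.4-fold change, and Idi1 at -2.33 and -2.28 with oxLDL 60 lies farthest from 0.

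Acat1 and Acat2 encode thiolases that join acetyl-CoA units, Acat2 in the cytosol at the entry to the pathway and Acat1 in mitochondria. Acat2 stood at 13.6, 11.6 and 13.9 RPKM in untreated Apoe-/- replicates 1 to 3, at 10.8, 9.24 and 8.45 with oxLDL 10 and at 7.26, 7.03 and 6.46 with oxLDL 60. In DKO it stood at 14.7, 13.8 and 10.7 RPKM untreated, at 9.43, 10.0 and 8.32 with oxLDL 10 and at 6.57, 6.39 and 5.70 with oxLDL 60. The 3 treatments did not overlap in either genotype, each being lower than the one before. Acat2 fell with oxLDL 60 by 0.90 in Apoe-/- (SE 0.12, limma adjusted p = 1.5e-05) and by 1.05 in DKO (SE 0.12, adjusted p = 3.2e-06) on the log2 scale. With oxLDL 10 its differences of -0.45 and -0.48 were just under 1.4-fold (limma adjusted p = 0.027 and 0.024). For Acat1 the log2 difference was 0.10 and -0.07 with oxLDL 60, not called. A near-identical mouse paralog, Acat3, was listed at 0.0602 to 0.318 RPKM, and since reads that match both genes were not measured, the Acat2 level is uncertain.

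**Figure D2:**
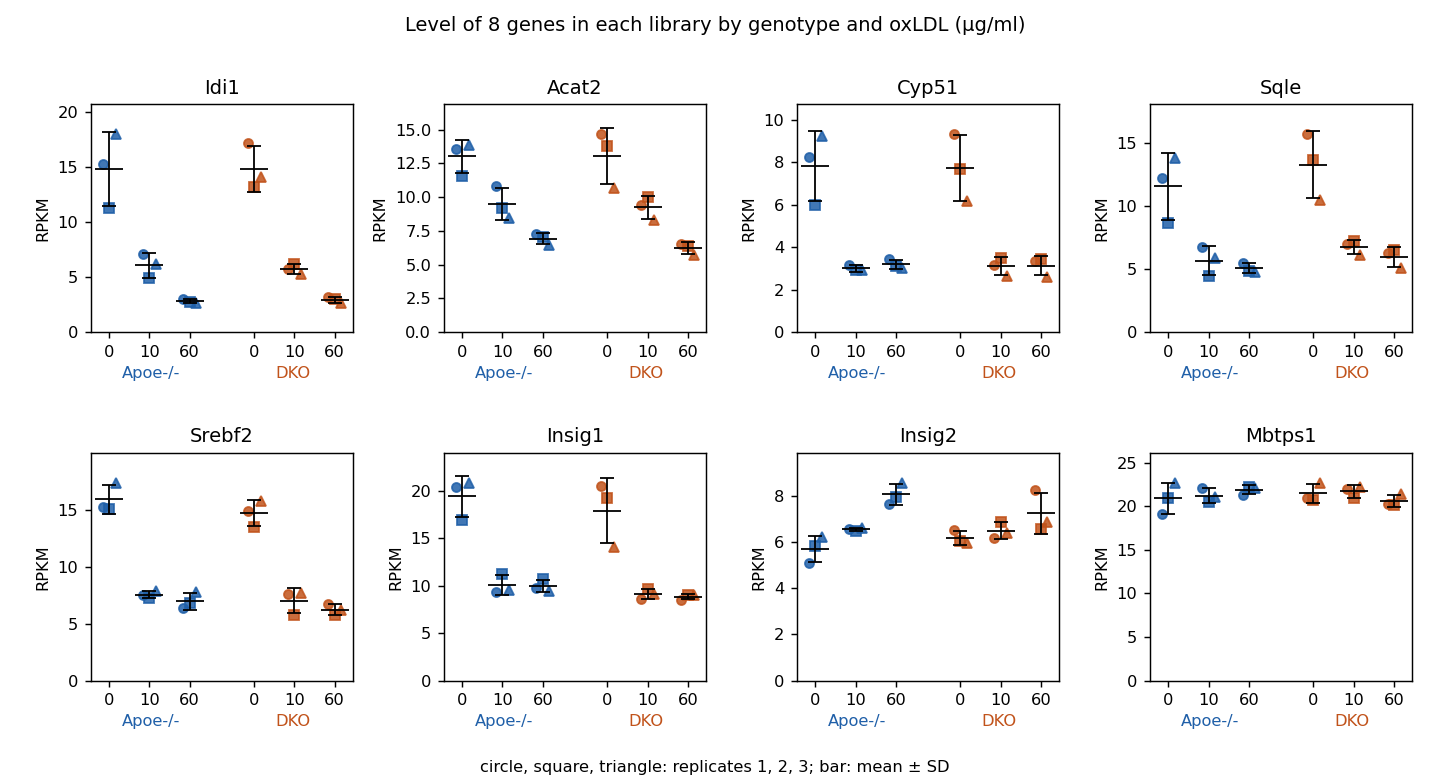
RPKM of Idi1, Acat2, Cyp51, Sqle, Srebf2, Insig1, Insig2 and Mbtps1 in each of the 18 libraries, by genotype and oxLDL in µg/ml, with replicates 1 to 3 as circle, square and triangle and the group mean ± SD. Idi1 and Acat2 step down at both amounts, Cyp51 and Insig1 are at like levels with 10 and 60 µg/ml, and Insig2 reaches 7.65 to 8.56 RPKM with oxLDL 60 in Apoe-/-.

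In the mevalonate and isoprenoid steps, 4 of 7 members fell in each of the 4 comparisons, namely Hmgcs1, Mvd, Idi1 and Fdps. Idi1, the isomerase that interconverts the isoprenoid units IPP and DMAPP, changed most of all members with oxLDL 60. It stood at 15.2, 11.3 and 18.0 RPKM in untreated Apoe-/- cells, at 7.12, 4.90 and 6.17 with oxLDL 10 and at 3.02, 2.74 and 2.68 with oxLDL 60. In DKO cells the values were 17.1, 13.1 and 14.1 RPKM untreated, 5.74, 6.20 and 5.30 with oxLDL 10 and 3.18, 3.00 and 2.66 with oxLDL 60. No treatment overlapped another in either genotype. Against untreated cells Idi1 was 5.04-fold lower with oxLDL 60 in Apoe-/- (-2.33 in log2, SE 0.15, adjusted p = 5.7e-09 by limma) and 4.87-fold lower in DKO (-2.28, SE 0.15, adjusted p = 1.0e-08). With oxLDL 10 it was 2.41-fold and 2.53-fold lower (limma adjusted p = 0.00013 and 9.0e-05).

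Hmgcs1, the synthase that makes HMG-CoA, fell from 11.7 ± 1.9 to 6.92 ± 0.29 RPKM with oxLDL 60 in Apoe-/- and from 12.0 ± 2.2 to 6.99 ± 0.25 RPKM in DKO (mean ± SD, n = 3). Fdps, which builds farnesyl diphosphate and was the most abundant member, fell from 38.2 ± 6.6 to 21.8 ± 0.61 RPKM and from 33.7 ± 2.0 to 18.6 ± 1.1 RPKM. Mvd, the decarboxylase that yields IPP, was 1.63-fold and 1.65-fold lower with oxLDL 60. The kinases between mevalonate and IPP gave smaller differences than these enzymes. Mvk, mevalonate kinase, differed by -0.32 and -0.30 with oxLDL 60 and by -0.29 and -0.31 with oxLDL 10, each with a limma adjusted p under 0.05 but under the 1.4-fold limit. Pmvk, the next kinase, was at -0.17 and -0.41 with oxLDL 60, not called. Ggps1, which makes geranylgeranyl diphosphate on a branch away from sterol, was not called, with differences of the other sign, 0.27 (limma adjusted p = 0.017) in Apoe-/- and 0.16 (adjusted p = 0.17) in DKO.

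Fdft1, Sqle and Lss carry farnesyl diphosphate through squalene to lanosterol, and the first 2 fell in all 4 comparisons. Sqle, squalene epoxidase, stood at 12.2, 8.64 and 13.8 RPKM in untreated Apoe-/- cells, at 6.70, 4.43 and 5.83 with oxLDL 10 and at 5.50, 4.83 and 4.80 with oxLDL 60. In DKO it stood at 15.7, 13.6 and 10.4 RPKM untreated, at 6.96, 7.18 and 6.08 with oxLDL 10 and at 6.25, 6.50 and 5.06 with oxLDL 60. Both amounts of oxLDL lay below the untreated libraries without overlap, and the 2 amounts overlapped each other. Its fold was 2.23 in Apoe-/- and 2.19 in DKO with oxLDL 60 (limma adjusted p = 8.9e-05 and 0.00012), and 2.01 and 1.93 with oxLDL 10. Fdft1, squalene synthase, was 1.62-fold and 1.58-fold lower with oxLDL 60. Its exons overlap those of Ctsb, on the opposite strand, in the GENCODE M21 annotation, and Ctsb stood at 816 to 1286 RPKM against 2.81 to 5.70 RPKM for Fdft1. The labels call the libraries stranded, but whether the counting used strand is not given in the sources used here, so reads of the overlap cannot be told apart.

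Lss, lanosterol synthase, fell with oxLDL 10 in Apoe-/- (-0.54 in log2, adjusted p = 0.0037 by limma). Its other differences were -0.43 with oxLDL 10 in DKO and -0.38 and -0.32 with oxLDL 60, all with adjusted p under 0.05. All 4 estimates were below 0 and the treated libraries lay below the untreated ones in each. Without untreated replicate 3 of Apoe-/- the difference with oxLDL 10 was -0.48 and not called.

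Of the 9 members that act after lanosterol, 3 fell with oxLDL 60 in each genotype. Cyp51, the lanosterol demethylase, stood at 8.25, 5.99 and 9.24 RPKM in untreated Apoe-/- cells, at 3.17, 2.91 and 2.93 with oxLDL 10 and at 3.42, 3.13 and 3.00 with oxLDL 60. In DKO it stood at 9.33, 7.66 and 6.20 RPKM untreated, at 3.15, 3.49 and 2.65 with oxLDL 10 and at 3.34, 3.45 and 2.61 with oxLDL 60. All treated libraries lay below all untreated ones, and the 2 amounts of oxLDL gave overlapping levels. Cyp51 was 2.38-fold and 2.41-fold lower with oxLDL 60 (limma adjusted p = 1.4e-05 and 1.3e-05) and 2.52-fold and 2.43-fold lower with oxLDL 10 (adjusted p = 0.00013 and 0.00018). Msmo1, the C4 methyl oxidase, fell from 26.0 ± 3.6 to 15.5 ± 0.62 RPKM with oxLDL 60 in Apoe-/- and from 28.1 ± 3.4 to 16.1 ± 1.3 RPKM in DKO. Hsd17b7, the 3-keto reductase of the same demethylation, was 1.47-fold (limma adjusted p = 0.014) and 1.56-fold (adjusted p = 0.0065) lower.

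Sc5d, the desaturase near the end of the pathway, fell with oxLDL 10 in both genotypes (-0.67 and -0.49 in log2, adjusted p = 0.0020 and 0.020 by limma). With oxLDL 60 its differences of -0.44 and -0.46 were under the 1.4-fold limit. Nsdhl, which acts with Msmo1 and Hsd17b7, differed by -0.44 and -0.43 with oxLDL 60, and Dhcr7, the last reductase, by -0.38 and -0.33, none of them called. Ebp, the sterol isomerase, and the C14 reductases Tm7sf2 and Lbr lay between -0.14 and 0.20 with oxLDL 60 in both genotypes. Lbr is also a receptor for lamin B in the nuclear envelope. Tm7sf2 shares exons with Vps51 on the same strand, which was at 11.8 to 15.6 RPKM against 1.64 to 2.84 RPKM, so its level is uncertain. Cyp51, Ggps1 and Lbr overlap Akap9, Arid4b and Dnah14 on the opposite strand, Fdps and Mbtps2 overlap Gm43738 and Yy2 on the same strand, and Hmgcs1, Idi1, Lss and Scap overlap antisense or unclassified models, with the same limit.

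Among the genes that control SREBP2, the factor itself and its retention partner Insig1 fell in all 4 comparisons, while the escort and both proteases were not called in any. Srebf2, which encodes SREBP2, stood at 15.3, 15.0 and 17.4 RPKM in untreated Apoe-/- cells, at 7.52, 7.23 and 7.89 with oxLDL 10 and at 6.33, 6.78 and 7.74 with oxLDL 60. In DKO it stood at 14.9, 13.5 and 15.8 RPKM untreated, at 7.57, 5.76 and 7.72 with oxLDL 10 and at 6.72, 5.74 and 6.19 with oxLDL 60. Every treated library was below every untreated one in both genotypes. Srebf2 was 2.27-fold and 2.34-fold lower with oxLDL 60 (limma adjusted p = 2.6e-07 and 2.0e-07) and 2.09-fold and 2.10-fold lower with oxLDL 10 (adjusted p = 3.3e-05 and 2.6e-05).

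Insig1, which holds SCAP in the endoplasmic reticulum, stood at 20.4, 17.0 and 20.9 RPKM in untreated Apoe-/- cells, at 9.33, 11.3 and 9.54 with oxLDL 10 and at 9.77, 10.7 and 9.42 with oxLDL 60. In DKO it stood at 20.5, 19.2 and 14.0 RPKM untreated, at 8.59, 9.64 and 9.13 with oxLDL 10 and at 8.53, 9.03 and 9.04 with oxLDL 60. Treated and untreated libraries did not overlap, and Insig1 was 1.93-fold and 1.99-fold lower with oxLDL 60 (limma adjusted p = 9.7e-06 and 7.1e-06). With oxLDL 10 the log2 difference of Insig1 was -0.94 in Apoe-/- and -0.95 in DKO. Insig2, its relative with the same retention role, went the other way. It stood at 5.10, 5.82 and 6.19 RPKM in untreated Apoe-/- cells, at 6.55, 6.47 and 6.58 with oxLDL 10 and at 7.65, 7.93 and 8.56 with oxLDL 60. In DKO it stood at 6.53, 6.02 and 5.95 RPKM untreated, at 6.17, 6.87 and 6.38 with oxLDL 10 and at 8.26, 6.56 and 6.86 with oxLDL 60. The oxLDL 60 libraries lay above the untreated ones in both genotypes, by a narrow gap in DKO.

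Insig2 rose with oxLDL 60 in Apoe-/- (0.49 in log2, SE 0.09, adjusted p = 0.00036 by limma). This lay at the 1.4-fold limit and went under it after rescaling by the median ratio, with a pseudocount of 1, without untreated replicate 1 or without oxLDL 60 replicate 3, and over all alternatives it was 0.42 to 0.55. In DKO the difference was 0.22 (SE 0.09, limma adjusted p = 0.078) and was not called. The difference between the genotypes, tested itself, was -0.27 (SE 0.12, 95% interval -0.54 to -0.01, limma adjusted p = 0.51), so that a genotype difference in the Insig2 response was not shown. For the same difference the median of all genes was -0.11, and its part in the Insig2 estimate was not tested. Scap, Mbtps1 and Mbtps2 lay between -0.12 and 0.12 in both genotypes with oxLDL 60, with Scap at 10.2 to 12.4 RPKM and Mbtps1 at 19.1 to 22.7 RPKM over all 18 libraries. Stard4, the sterol carrier, fell in all 4 comparisons, by 0.70 and 0.85 with oxLDL 60 and by 0.75 and 0.63 with oxLDL 10 on the log2 scale. Its call with oxLDL 10 in DKO was lost under 6 of 15 alternative fits.

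The comparison of oxLDL 60 with oxLDL 10 asked whether the larger amount lowered these genes further. Only Idi1 was called in Apoe-/- (3.54% of all genes were called lower), and Idi1 and Acat2 were called in DKO (3.74%). Idi1 fell by 1.07 (SE 0.15, limma adjusted p = 0.00013) in Apoe-/- and by 0.94 (SE 0.15, adjusted p = 0.00043) in DKO from the lower to the higher amount. Acat2 fell by 0.56 in DKO (limma adjusted p = 0.0032), which after rescaling by the median ratio was 0.483 and under the 1.4-fold limit, and the difference in Apoe-/- was -0.45 (adjusted p = 0.016). The member medians were -0.01 and -0.12, near the -0.01 and -0.08 of all genes. The 95% interval of the difference lay wholly within 1.4-fold for 25 of 28 members in Apoe-/- and for 24 in DKO. For Cyp51 the intervals were -0.26 to 0.42 and -0.32 to 0.35, for Srebf2 -0.35 to 0.11 and -0.39 to 0.07, and for Insig1 -0.26 to 0.24 and -0.29 to 0.21.

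**Figure D3:**
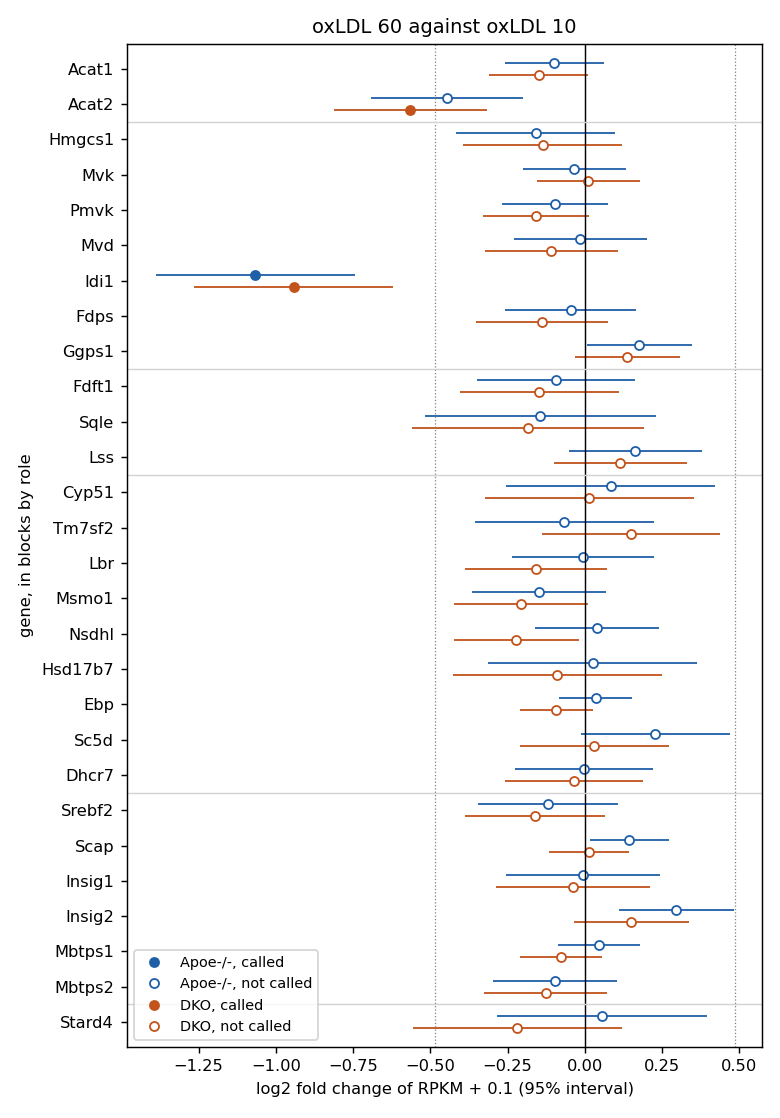
Log2 fold change of RPKM + 0.1 from oxLDL 10 to oxLDL 60 for each of the 28 genes in Apoe-/- (blue) and DKO (orange), with 95% intervals from limma. Filled points were called, dotted lines mark a 1.4-fold change, and Idi1 (both genotypes) and Acat2 (DKO) are the filled ones.

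Treml4 loss was examined by comparing DKO with Apoe-/- at each treatment. No member was called in untreated cells (0.21% of all genes were called in either direction), with oxLDL 10 (0.0857%) or with oxLDL 60 (0.125%). At an unadjusted limma p under 0.05 there were 0, 1 (Tm7sf2) and 2 members (Fdps and Ebp), against 17.3%, 9.75% and 7.88% of all genes. The smallest limma adjusted p of a member was 0.30, 0.50 and 0.54. The median log2 difference was 0.09, 0.05 and -0.02 over all genes, and 0.04, -0.01 and -0.08 over the members. After rescaling by the median ratio, the medians in untreated cells were -0.007 and -0.06. The part of this shift of all genes in the shares was not tested. Estimates ran from -0.31 for Tm7sf2 to 0.27 for Stard4, both with oxLDL 10. The widest bounds of any 95% interval were -0.60 (Tm7sf2) and 0.64 (Sqle), both with oxLDL 10, and the interval lay within 1.4-fold for 25, 24 and 27 of the 28 members. For most members a genotype difference over 1.4-fold was thus outside the interval. Sqle was an exception at each treatment, with upper bounds of 0.58, 0.64 and 0.60.

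**Figure D4:**
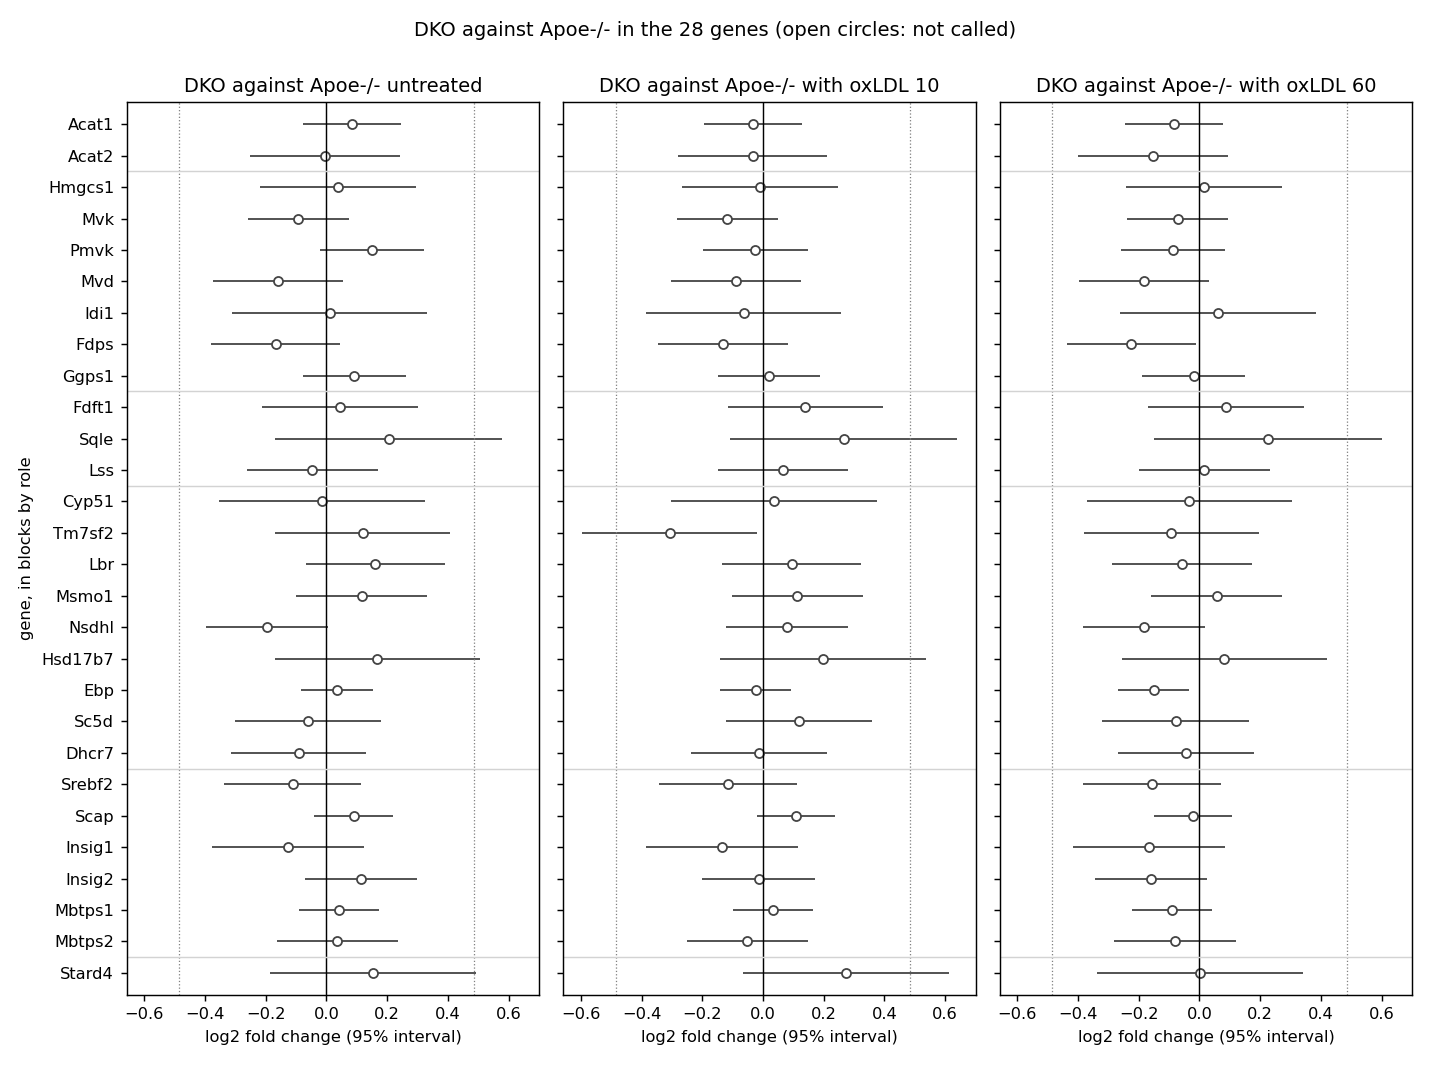
Log2 fold change of DKO against Apoe-/- for each of the 28 genes in untreated cells and with oxLDL 10 and oxLDL 60, with 95% intervals from limma. All points are open, since none was called, and dotted lines mark a 1.4-fold difference.

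Whether Treml4 loss altered the response to oxLDL was tested as the interaction of genotype and treatment. No member was called for oxLDL 60 (0.0156% of all genes) or for oxLDL 10 (0% of all genes). At an unadjusted limma p under 0.05 there were 2 members for oxLDL 60 (Ebp and Insig2) and 1 for oxLDL 10 (Tm7sf2), against 9.78% and 1.92% of all genes. For oxLDL 60 the estimates ran from -0.27 (Insig2) to 0.06 (Lss) and the intervals from -0.63 to 0.55, with 19 of 28 within 1.4-fold. The median for oxLDL 60 was -0.06 over the members and -0.11 over all genes. After rescaling by the median ratio these medians were 0.07 and 0.005. For Idi1 the interaction was 0.05 with an interval of -0.41 to 0.51, which includes a difference of 1.4-fold. Libraries with the same number and genotype were taken as from 1 animal. For Idi1, Cyp51, Srebf2, Sqle, Insig1 and Acat2 all 6 animals were lower with oxLDL 60 than untreated. That count follows under any pairing from the lack of overlap with the untreated libraries and is no further result. The within-animal log2 difference was -2.70 to -2.01 for Idi1 and -1.34 to -1.14 for Srebf2.

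**Figure D5:**
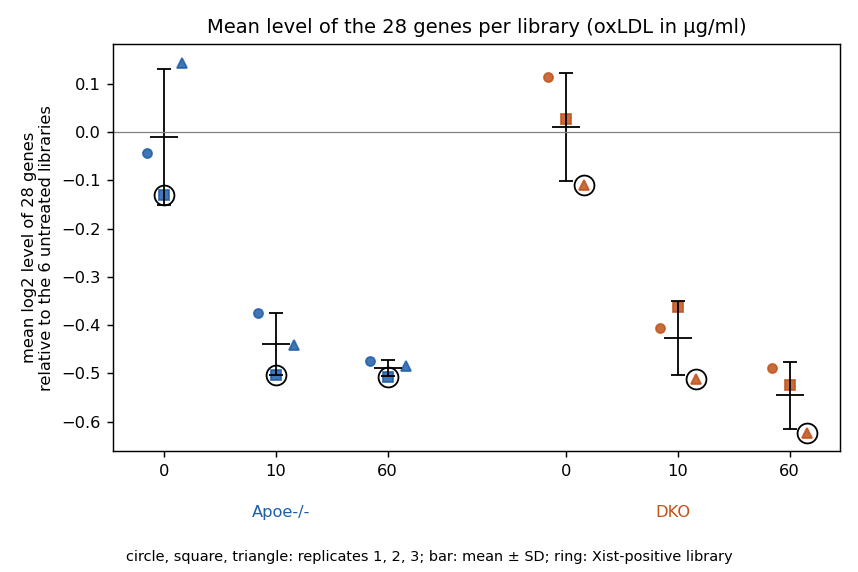
Mean log2 level of the 28 genes in each library relative to the 6 untreated libraries, by genotype and oxLDL in µg/ml, with the group mean ± SD; rings mark Xist-positive libraries. Treated libraries lie from -0.62 to -0.36, untreated ones from -0.13 to 0.14, and the ringed library is the lowest of its group in each of the 6 groups. The part of the ringed libraries in the results was not tested beyond the counts without them and a fit with a term for them.

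Genes around the pathway were counted from further lists. None of 15 genes that use isoprenoids, such as the prenyltransferases, was called with either amount in either genotype, and their median with oxLDL 60 was 0.12 in Apoe-/- and -0.04 in DKO. Of 11 genes that degrade sterol-regulated proteins in the endoplasmic reticulum, Rnf145, a sterol-regulated ubiquitin ligase, was the 1 called with oxLDL 60, where 6.78% of all genes were called lower in Apoe-/- and 7.31% in DKO, so that the count is near that of all genes. It fell in both genotypes (-1.31 and -1.24 in log2, adjusted p = 7.3e-09 and 1.5e-08 by limma). Rnf145 went from 8.85 ± 0.68 to 3.51 ± 0.07 RPKM in Apoe-/- and from 7.80 ± 1.1 to 3.23 ± 0.19 RPKM in DKO, with oxLDL 10 at 7.15 ± 0.31 and 6.87 ± 0.34 RPKM, where it was not called. Of 8 genes for electron donors and acetyl-CoA supply, 3 rose and 1 fell in both genotypes with oxLDL 60, where 7.13% of all genes were called higher in Apoe-/- and 4.87% in DKO. The electron donors Por and Cyb5a rose by 1.22 and 1.38 in Apoe-/- and by 0.86 and 1.22 in DKO, Acss2, an acetyl-CoA synthetase, rose by 1.63 and 1.59, and Aacs, which activates acetoacetate and is named after its values were seen, fell by 0.80 and 0.82. With oxLDL 10 the call in this list was Cyb5a in Apoe-/- (0.49), where 0.748% of all genes were called higher.

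Of 7 other genes known to respond to SREBP2, Fads2, a fatty acid desaturase, fell in all 4 comparisons (-1.29 and -1.15 in log2 with oxLDL 60, -0.86 and -0.79 with oxLDL 10). Pcyt2, of phosphatidylethanolamine synthesis, fell with oxLDL 60 in DKO (-0.59), and 5 were not called in these comparisons. Of all genes, 6.78% in Apoe-/- and 7.31% in DKO were called lower with oxLDL 60, and 2.04% and 1.69% with oxLDL 10. Of 8 genes of sterol transfer and esterification, Nceh1, which hydrolyses cholesteryl ester, rose with oxLDL 60 by 0.96 and 0.80, and Gramd1b, a sterol transporter, by 0.54 and 0.49. Soat1, which esterifies cholesterol, rose in Apoe-/- (0.52), and Stard3, a carrier of sterol from late endosomes that is named after its values were seen, fell in DKO (-0.50). With oxLDL 60, 7.13% of all genes in Apoe-/- and 4.87% in DKO were called higher. With oxLDL 10 the call in this list was Nceh1 in DKO (0.49), where 0.569% of all genes were called higher.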

How the data were processed

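The authors aligned reads with STAR to mm10, per the submitters' processing notes, and deposited RPKM values for 18668 symbols in 18 libraries; the study's methods name a workflow with RNA-SeQC and Subread, and the counting settings and annotation are not given in the sources used here. Spreadsheet software had turned 24 symbols into dates. No column was left unmapped. Depth was recovered from 1-read steps: 68.9% of 20321 low values lay within 0.05 of whole steps (10% by chance), with gene lengths from GENCODE M21, so depth and read numbers are approximate and cover counting error only. RPKM are not counts, so limma 3.58.1 in R 4.3.3 (lmFit, eBayes with trend, Benjamini-Hochberg within each comparison) was fitted to log2(RPKM + 0.1) of the 12838 genes that reached 0.1 RPKM in 3 or more libraries, with 1 mean for each of 6 groups. Fold changes of low genes are understated on this scale. The thresholds follow the study's methods. The fit was tested on simulated data.

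Members and lists were chosen with earlier results of these data known. All 28 members are named, each library's value being given for those called with oxLDL 60 at 2-fold or more and for Srebf2, Insig1 and Insig2. Up to 3 called genes per other list are named, with Aacs and Stard3 as exceptions. Within a genotype, deviations from group means of same-numbered libraries correlated at 0.18 to 0.69 in all 18 pairs. Pairs with other numbers lay at -0.61 to 0.29 (median -0.35), so the ranges overlapped. Numbers were taken to mark the same animal, and a fit with the animal as replicate block (statmod 1.5.0) was an alternative. Others changed the pseudocount, filter, scaling, fold limit and libraries, or added a term for Xist-positive libraries. Python 3.11.15, pandas 2.3.3, numpy 2.4.6 and matplotlib 3.10.9 were used.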

Additional observations from a re-analysis of the deposited data

How the results depend on the processing

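Over the alternatives, the number of members called was 12 to 20 with oxLDL 60 in Apoe-/- (14 as reported), 13 to 19 in DKO (13), 11 to 18 with oxLDL 10 in Apoe-/- (14) and 8 to 15 in DKO (12), where the lowest came from fitting only the groups compared. The highest counts with oxLDL 60 came with no limit on the fold change. There, 3873 of all 12838 genes in Apoe-/- and 3319 in DKO had a limma adjusted p under 0.05. With oxLDL 10 these numbers were 904 and 510, and from oxLDL 10 to oxLDL 60 in Apoe-/- 1731. Leaving out 1 library at a time gave 13 to 15, 13 to 15, 11 to 15 and 9 to 15. No direction reversed, and 0 members were called between genotypes or for an interaction under any alternative. From oxLDL 10 to oxLDL 60 in Apoe-/- 1 member was called, 3 with no limit on the fold change and 1 to 2 with 1 library left out (Idi1 and Acat2 without oxLDL 10 replicate 3), and in DKO 2 were called, or 1 after rescaling by the median ratio. With the animal as replicate block 14, 13, 14 and 13 members were called, adding Hsd17b7 with oxLDL 10 in DKO, and this paired fit changed no other call. With oxLDL 10, Hsd17b7 in Apoe-/- lost its call under 8 of 15 alternatives, and in DKO Fdft1 under 7, Sc5d under 6 and Stard4 under 6; the cause was not tested. For Hsd17b7 these included each library but oxLDL 10 replicate 1, for Fdft1 and Stard4 untreated replicates 1 and 2 and oxLDL 10 replicates 1 and 3, and for Sc5d untreated replicate 1 and oxLDL 10 replicates 1 and 3. Without untreated replicate 3, Hmgcs1 and Lss lost their calls with oxLDL 10 in Apoe-/-. With oxLDL 60, Insig2 lost its call under 4 and Hsd17b7 under 3 in Apoe-/- (for Hsd17b7, without untreated replicate 1 and without oxLDL 60 replicate 2 among them), and 12 members kept theirs under every alternative in Apoe-/- and 13 in DKO. The fewest reads behind a member value were about 289, for Tm7sf2, from approximate depths.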

Other observations

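The 6 Xist-positive libraries had the lowest mean level of the 28 genes in each of the 6 groups, at -0.13 and -0.11 in untreated cells against -0.04 to 0.14 in the other 4 untreated libraries, on the log2 scale relative to all untreated ones. Fdft1, Lss, Lbr, Hsd17b7 and Sc5d were lowest in that library in all 6 groups, and 11 members in at least 5 of them. Hsd17b7 was 0.17 to 0.49 below the mean of the other 2 libraries of its group, and Lbr, which was not called with oxLDL, 0.13 to 0.31 below. Srebf2 differed by -0.11 to 0.22 and Mvd by -0.07 to 0.28. Each genotype has 1 such animal, so that Xist and the individual animal cannot be told apart, and this pattern was noticed in the data and not tested.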
